A study of Homo sapiens with 4 samples.

Results

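The genes described here are 5 metallothionein genes (MT1E, MT1F, MT1G, MT1X and MT2A), the metal-responsive transcription factor MTF1, and 4 copper handling genes (ATP7A, ATP7B, SLC31A1 and ATOX1). They were chosen by name, and every probe whose RefSeq identifier belongs to one of them was taken. These were 18 of the 41000 probes of the array, and 10 of the 18203 genes that a probe could be tied to. Earlier results of these data were known when the names were chosen, and ATP7B had been singled out by its differences from wild-type cells in both knockouts. Its differences are therefore given as a description.

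The RNA came from the human pre-B leukemia line Nalm-6, in a study of how the INO80 chromatin remodeling complex takes part in transcription under oxidative stress. There were 4 cultures with 1 array each: wild-type cells (WT), cells lacking actin-related protein 5 (Arp5 KO), cells lacking actin-related protein 8 (Arp8 KO), and a culture whose label gives overexpression of Arp8 (Arp8 OE). These actin-related proteins, encoded by ACTR5 and ACTR8, are subunits of INO80. Arp5 KO cells were an established line in which both alleles had been disrupted by gene targeting. Arp8 KO cells had been made earlier with a similar protocol, so a feature of a line cannot be told apart from its genotype. The study states that Arp5 KO cells grew slightly slower than wild-type cells, and that conditional knockout of Arp8 had been lethal to cells. The part of slow growth or cell death in the differences below was not tested. Heme, which induces oxidative stress, was given at 20 uM for 12 hours to every culture according to the sample titles and the treatment protocol. The treatment field of both knockouts states no heme, while the source name does so for the Arp5 knockout alone. The genotype and the treatment of the knockouts thus cannot be told apart in any comparison below.

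Metallothioneins are small, cysteine-rich proteins that bind zinc, copper and cadmium ions and also scavenge reactive oxygen species. Most human metallothionein genes lie side by side in a cluster on chromosome 16. They are switched on by MTF1, a zinc-sensing factor that binds short metal response elements in their promoters. Copper enters cells through the membrane transporter SLC31A1 (CTR1) and is carried in the cytosol by the chaperone ATOX1 to the copper-pumping ATPases ATP7A and ATP7B, which load copper enzymes in the secretory pathway and export the excess. ATP7A is used by most tissues, whereas ATP7B is best known from liver and from Wilson disease.

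The promoter sequences of MT1X, MT2A and ATP7B are shown because these genes behaved differently on the arrays. They were taken from RefSeq (build GRCh38.p14) as 300 bases that run from 250 before to 50 after the start site. The windows are chr16:56682220-56682519 on the plus strand for MT1X, chr16:56608334-56608633 on the plus strand for MT2A, and chr13:52012083-52012382 on the minus strand for the first of the 3 listed ATP7B start sites. Capitals mark matches to the core of the metal response element, TGCACNC or TGCGCNC on either strand.
MT1X: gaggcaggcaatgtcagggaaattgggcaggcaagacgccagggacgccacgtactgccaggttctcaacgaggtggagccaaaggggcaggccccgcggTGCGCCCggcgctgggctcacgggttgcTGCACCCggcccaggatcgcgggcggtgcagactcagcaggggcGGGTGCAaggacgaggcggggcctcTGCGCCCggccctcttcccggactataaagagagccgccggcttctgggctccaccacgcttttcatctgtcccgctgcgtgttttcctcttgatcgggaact
MT2A: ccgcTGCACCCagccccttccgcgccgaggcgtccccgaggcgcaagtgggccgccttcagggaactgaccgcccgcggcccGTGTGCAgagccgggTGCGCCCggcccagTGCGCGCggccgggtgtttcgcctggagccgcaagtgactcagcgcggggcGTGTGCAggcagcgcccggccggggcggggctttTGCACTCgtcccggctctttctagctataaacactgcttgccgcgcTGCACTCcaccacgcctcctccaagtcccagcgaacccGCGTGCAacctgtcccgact
ATP7B: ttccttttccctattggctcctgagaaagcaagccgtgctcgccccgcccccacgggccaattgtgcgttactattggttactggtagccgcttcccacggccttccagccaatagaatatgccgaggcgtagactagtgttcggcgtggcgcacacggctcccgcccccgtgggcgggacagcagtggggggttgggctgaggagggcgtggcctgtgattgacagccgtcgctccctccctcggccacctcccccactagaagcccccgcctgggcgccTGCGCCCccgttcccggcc

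MT1X held 4 such cores and MT2A held 8. ATP7B held 1 in the window shown, 2 in the second and 0 in the third. Among the other 4 members with a promoter entry, ATOX1 (chromosome 5) held 2 that overlap each other, and MTF1 (chromosome 1), ATP7A (chromosome X) and SLC31A1 (chromosome 9) held 0. For MT1E, MT1F and MT1G no promoter sequence was analysed here. Of 34796 distinct human promoters of the same length, 29.5% held at least 1 core, 2.30% held at least 3 and 0.164% held at least 5. Among the other metallothionein genes of the cluster with an entry, MT1B held 3, MT1H 8 and MT4 3. A TATAAA box lay at position -30 in MT1X and -29 in MT2A, counted from the start site. The core of the antioxidant response element, TGACNNNGC on either strand, was found once each in MT1X, MT2A and ATOX1, and 13.3% of all promoters held at least 1. A match describes the letters of the window only.

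**Figure D1:**
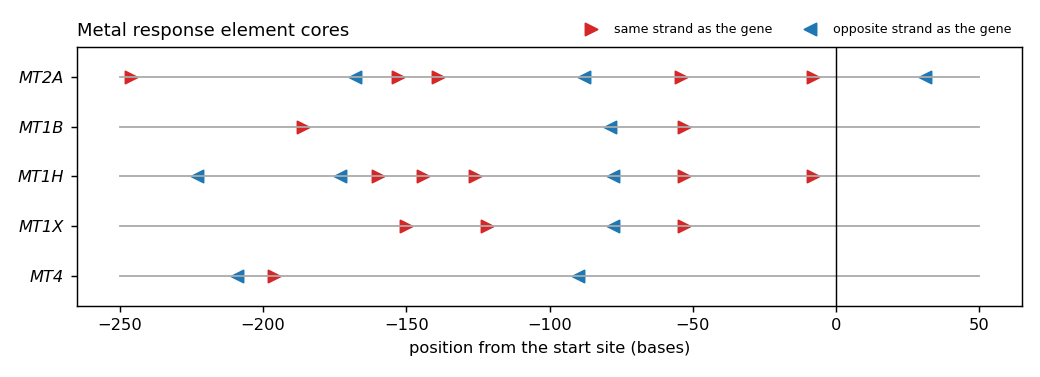
Positions of metal response element cores in the promoters of 5 metallothionein genes, in bases from the start site (vertical line); right-pointing triangles are on the strand of the gene and left-pointing triangles on the opposite strand. MT2A and MT1H each held 8 cores, MT1X 4, and MT1B and MT4 3 each, most of them before the start site.

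The arrays were alike in quality. Between 55.8% and 57.4% of the 41000 probes were well above background on each array, 0 spots were saturated, and the 75th percentile of the signal lay between 647 and 740 units. The labels were checked on the targeted genes. ACTR5 was 19.3-fold lower on the Arp5 KO array than on the WT array, and the ACTR8 probes differed by -0.68 and -0.53 on the log2 scale on the Arp8 KO array. On the Arp8 OE array they differed by -0.01 and 0.02, so "Arp8 OE" is used as a name only. HMOX1, the heme-induced oxygenase gene the study is built on, was lower than in WT on every other array, with log2 differences of -2.98 and -2.91 in the Arp5 and Arp8 knockouts and -2.05 in Arp8 OE. All 11 pre-B and B-lineage marker genes examined were well above background on each array. Of their 16 probes, 0 were past 2-fold in Arp5 KO. In Arp8 KO 1 was higher (DNTT, log2 difference 1.78) and 2 were lower (CD22, -2.58, and VPREB1, -1.26), and in Arp8 OE 2 were higher (DNTT, log2 difference 1.02, and 1 of 2 RAG1 probes, 2.15-fold). The shares of all tested probes past 2-fold higher and lower were 1.69% and 2.01% in Arp5 KO. They were 3.37% and 4.35% in Arp8 KO, and 2.96% and 2.15% in Arp8 OE. The part of these marker differences in the results below was not tested. Of 11 T cell, myeloid and erythroid marker genes, at most 3 were well above background on any array, none above a log2 level of -3.32.

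Levels below are log2 of the processed signal relative to the 75th percentile of the same array, so that 0 is the level of that percentile and 1 unit is 2-fold. Levels of different probes are not comparable. With 1 array per group there is no replicate and no test. The only error that can be given is the technical SD, the spread of a log2 difference between spots of the same probe, read from 264 probes printed 10 times, at a like level. It covers spot error only, not differences between cultures. All 3 comparisons use the same WT array, so a WT value that was off would move all 3 the same way. Each array reads a whole culture, so a change in every cell and a change in the share of cells cannot be told apart.

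Of the 18 member probes, 17 were well above background on all 4 arrays, and 1 MTF1 probe was so on none. In Arp5 KO cells 1 of the 17 probes was past 2-fold higher, that of ATP7B, and 0 were past 2-fold lower, where 1.69% of all 24285 tested probes were past 2-fold higher and 2.01% lower. In Arp8 KO cells 3 were past 2-fold higher, both MT1X probes and ATP7B, and 0 lower, where the background was 3.37% higher and 4.35% lower of 24578 probes. In Arp8 OE cells 1 was past 2-fold higher, MT1F, and 0 lower, where the background was 2.96% higher and 2.15% lower of 24177 probes. Unlike the 17 member probes, the background includes probes well above background on only 1 of the arrays compared. Without those, its counts higher and lower fell from 411 and 488 to 155 and 203 in Arp5 KO. They fell from 828 and 1068 to 576 and 632 in Arp8 KO, and from 715 and 520 to 386 and 233 in Arp8 OE. The median log2 difference of the member probes was 0.10 and 0.04 in the Arp5 and Arp8 knockouts and 0.12 in Arp8 OE, beside 0.00, 0.03 and 0.00 over all tested probes.

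**Figure D2:**
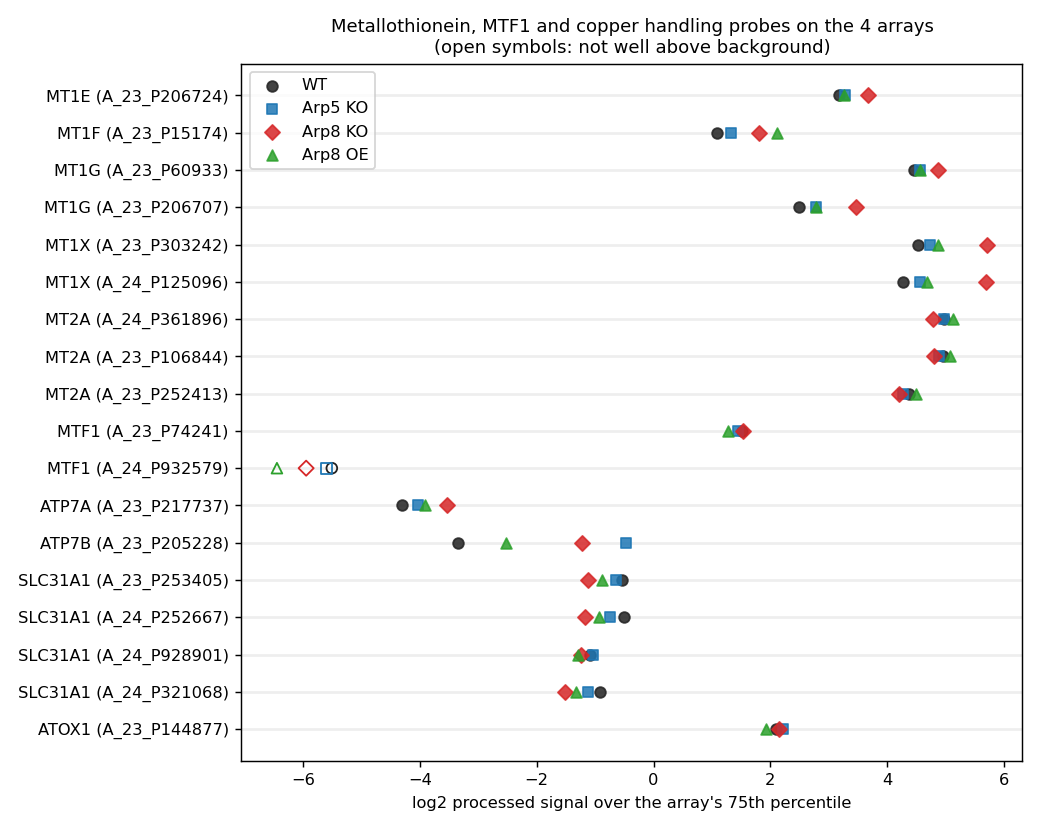
Level of each member probe on the 4 arrays (log2 processed signal over the 75th percentile of the array); 1 symbol is 1 array, and open symbols are not well above background. The MT1X and MT1G probes have Arp8 KO to the right of the 3 other arrays, the 3 MT2A probes have it on the left, and ATP7B is spread over a range of 2.88.

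The MT1 genes showed the same order on most probes, with WT lowest and Arp8 KO highest. MT1X, an MT1 isoform expressed in many tissues, had the largest differences from WT of the metallothioneins in Arp8 KO. Its probe A_23_P303242 read 4.53 in WT, 4.73 and 5.71 in the Arp5 and Arp8 knockouts, and 4.87 in Arp8 OE. Its probe A_24_P125096 read 4.28, 4.56, 5.70 and 4.69 in the same order. On both probes Arp8 KO stood apart from the other arrays, which lay close together. The Arp8 KO difference from WT was 1.18 (2.27-fold, technical SD 0.038) on the first probe and 1.42 (2.68-fold, technical SD 0.038) on the second, 1.30 ± 0.17 (SD between the 2 probes). Against WT, the probes were higher by 0.20 and 0.28 in Arp5 KO and by 0.34 and 0.41 in Arp8 OE. With Arp8 OE as the reference, the Arp8 KO difference was 0.84 and 1.02, so the first probe was then no longer past 2-fold.

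MT1G, a further MT1 isoform, was read by 2 probes that disagreed in size. Probe A_23_P206707 read 2.49 in WT, 2.78 and 3.46 in the Arp5 and Arp8 knockouts, and 2.79 in Arp8 OE, an Arp8 KO difference of 0.97 (1.96-fold, technical SD 0.039). Probe A_23_P60933 read 4.46, 4.56, 4.87 and 4.57, an Arp8 KO difference of 0.41 (1.33-fold, technical SD 0.038). On both, Arp8 KO was highest and WT lowest, and Arp5 KO and Arp8 OE were within 2 technical SDs of each other.

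MT1E read 3.17 in WT, 3.28 and 3.68 in the Arp5 and Arp8 knockouts, and 3.27 in Arp8 OE. Its Arp8 KO difference was 0.51 (1.43-fold, technical SD 0.038), with the other arrays within 0.11 of WT. MT1F was the exception to this order, with Arp8 OE above Arp8 KO. It read 1.09 in WT, 1.32 and 1.80 in the Arp5 and Arp8 knockouts, and 2.11 in Arp8 OE. Its difference was 0.71 (1.63-fold, technical SD 0.044) in Arp8 KO and 1.02 (2.02-fold, technical SD 0.039) in Arp8 OE. The Arp8 OE value lay at the 2-fold line, since scaling to the median gave 0.98 and normexp background correction 0.96.

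MT2A, the major metallothionein of most human tissues, did not follow the MT1 genes. Its probe A_24_P361896 read 4.98 in WT, 4.98 and 4.78 in the Arp5 and Arp8 knockouts, and 5.13 in Arp8 OE. Probe A_23_P106844 read 4.95, 4.89, 4.81 and 5.08, and probe A_23_P252413 read 4.37, 4.27, 4.20 and 4.49. On all 3 probes Arp8 KO was lowest and Arp8 OE highest, within a narrow range. On A_23_P252413 Arp8 KO lay within 2 technical SDs of Arp5 KO (gap 0.064, technical SD 0.038), and on both other probes Arp5 KO lay within 2 technical SDs of WT. The mean Arp8 KO difference was -0.17 ± 0.03 (SD between 3 probes), against -0.05 ± 0.05 in Arp5 KO and 0.14 ± 0.02 in Arp8 OE. On an Arp8 KO array with MT1X 2.27 to 2.68-fold above WT, MT2A was thus at 0.873 to 0.910 of its WT level.

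The split between MT1X and MT2A was also read as the MT1X difference from WT minus the MT2A difference from WT, per comparison. Only a scaling factor applied to a whole array cancels in this value. The WT array enters every such gain, so a WT value that was off would move the gains of all comparisons the same way. Over the 6 pairs of an MT1X and an MT2A probe, MT1X gained on MT2A by 1.32 to 1.62 in Arp8 KO (median 1.47). In Arp5 KO the gain was 0.21 to 0.38 (median 0.29) and in Arp8 OE 0.19 to 0.29 (median 0.24). The 6 pairs reuse 5 probes and are not replicates.

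**Figure D3:**
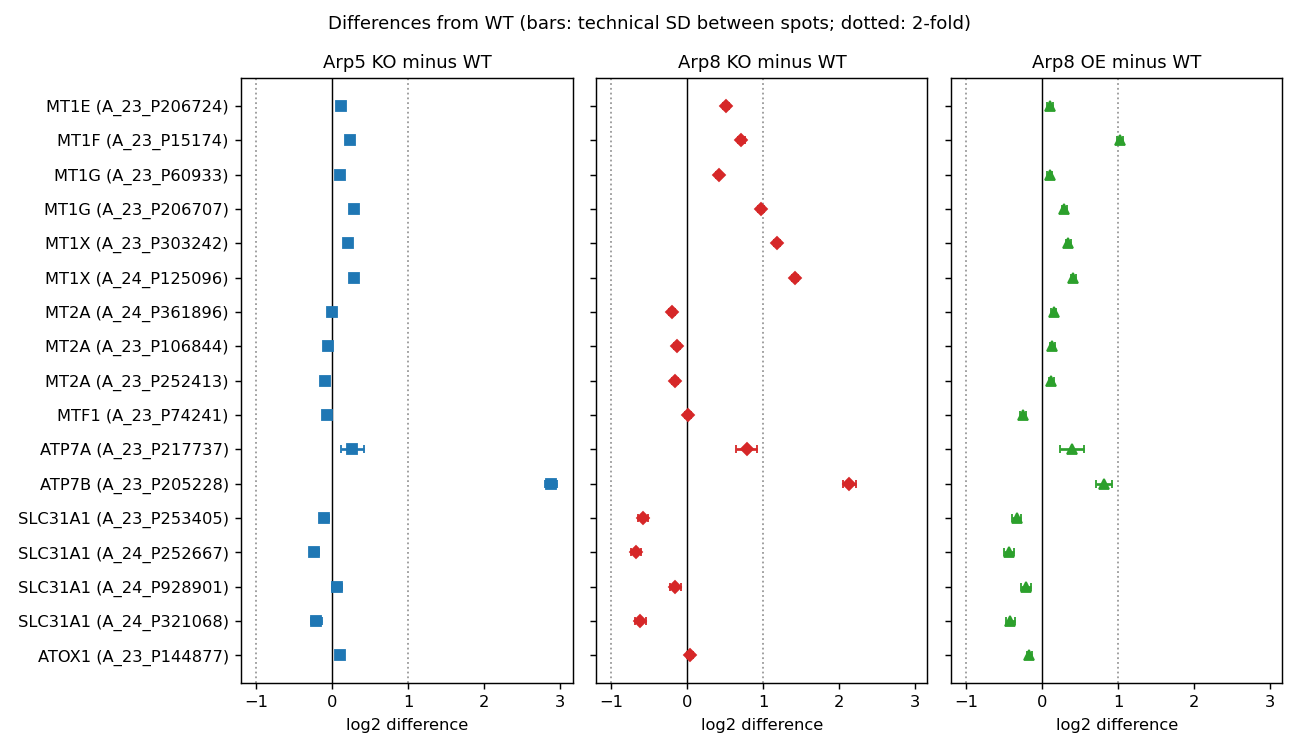
Log2 difference of each member probe from WT on each of the 3 other arrays; the horizontal bars are the technical SD between spots and the dotted lines 2-fold. ATP7B lies past 2-fold in both knockouts, the MT1X probes in Arp8 KO and MT1F at the line in Arp8 OE, while the MT2A probes stay within 0.20 of 0 in every panel.

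The other metallothionein genes were examined as a list. Of 10 such genes, 8 had a probe, and 5 were well above background somewhere, on 6 probes. In Arp8 KO 2 of the 6 probes were past 2-fold higher, where 3.37% of all tested probes were. Both were of MT1H, at 1.09 (2.13-fold) and 1.01 (2.01-fold). MT1A differed by 0.92 in Arp8 KO, MT3 by 0.30, MT1L by 0.20 and MT1B by 0.14. The list medians were 0.22 and 0.61 in the Arp5 and Arp8 knockouts and 0.30 in Arp8 OE, with 0 probes past 2-fold in Arp5 KO or Arp8 OE. MT1M, MT1JP and MT4 were at background throughout, as was the second probe of MT3.

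Taking the metallothionein probes other than MT2A as a whole, 12 probes of 9 genes, each of the 12 was above WT on all 3 other arrays. Their median differences were 0.22 and 0.81 in the Arp5 and Arp8 knockouts and 0.30 in Arp8 OE. WT was lowest on 12 of 12 and Arp8 KO highest on 10 of 12, where these orders held for 26.3% and 34.0% of the 21783 probes well above background on all arrays. Leaving out MT2A, which did not follow this order, raises these counts, so they are a description only. On the MT1B and MT1L probes Arp5 KO lay within 2 technical SDs of WT (0.039 and 0.061, technical SD 0.039). On the 3 MT2A probes Arp8 KO was lowest on 3 of 3, on 1 of them within 2 technical SDs of Arp5 KO, against 28.7% of all such probes. The MT1 genes are similar in sequence, but transcript and probe sequences were not analysed here and cross-hybridization was not tested. These 12 probes thus cannot be taken as 12 independent readings, and the values of single MT1 genes are uncertain.

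The genes that flank the cluster on chromosome 16 were examined in the same way. Of 7 flanking genes (NUDT21, OGFOD1 and BBS2 on one side, NUP93, SLC12A3, HERPUD1 and CETP on the other), 0 probes were past 2-fold higher in any comparison. Over all tested probes, the shares past 2-fold higher were 1.69% and 3.37% in the Arp5 and Arp8 knockouts and 2.96% in Arp8 OE. Those past 2-fold lower were 2.01%, 4.35% and 2.15% in the same order. The probe past 2-fold lower in each comparison was 1 of 3 for SLC12A3, well above background in WT alone, and lower by at least 3.94-fold in Arp5 KO, 4.24-fold in Arp8 KO and 3.32-fold in Arp8 OE. This probe (A_32_P108066) read 86.7 signal units in WT and had 2 adjacent spots brighter by over 2-fold on the WT array alone, where 1.58% of 25273 probes had at least 2, and their part in the value was not tested. The other SLC12A3 probes were not well above background in the knockouts, so their values there are bounds. They were -0.58 and -0.57 or lower in Arp5 KO, and -0.68 or lower on both in Arp8 KO. In Arp8 OE they differed by 0.18 and 0.17, the latter on a probe not well above background there, which gives no bound. The median differences of the flanking probes were -0.07 and -0.15 in the Arp5 and Arp8 knockouts and -0.24 in Arp8 OE. Nearest to MT1X, NUP93 differed by -0.07 and -0.15 in Arp8 KO. On the other side, BBS2 differed by 0.27 and 0.62 in the Arp5 and Arp8 knockouts and -0.17 in Arp8 OE, and OGFOD1 by 0.11, 0.31 and -0.31. The Arp8 KO value of BBS2 was thus above the 0.51 of MT1E. BBS2 had 3 adjacent spots bright on the Arp5 KO array alone and 1 on the Arp8 KO array alone, and their part was not tested. The flanking genes were named after their values were seen.

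**Figure D4:**
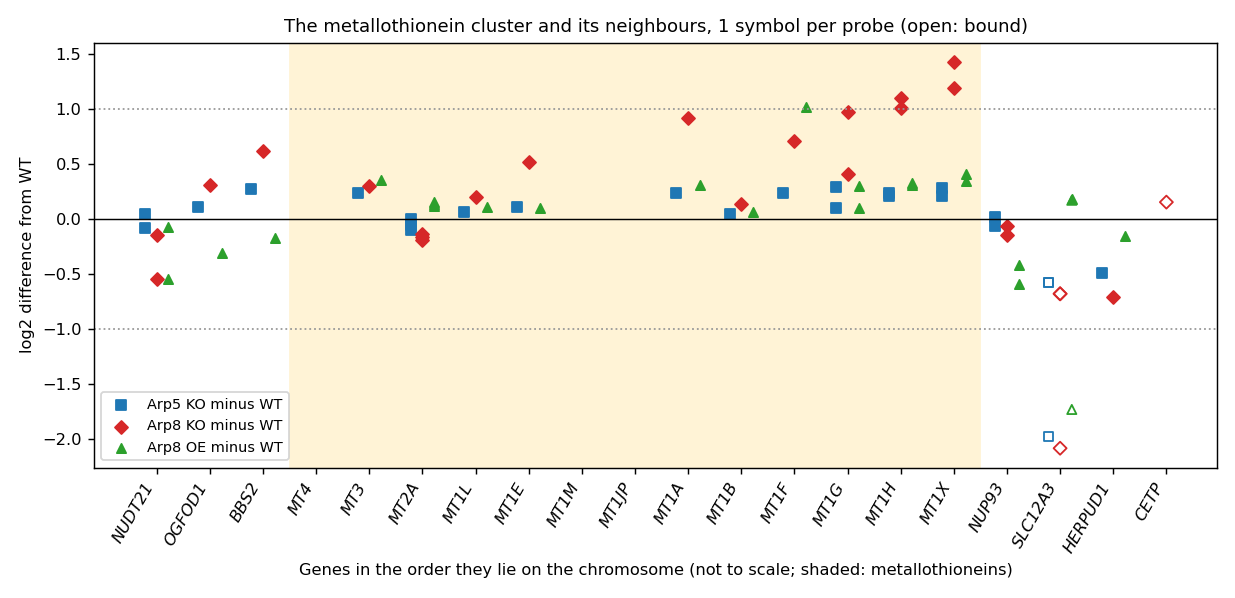
Log2 difference from WT for each probe of the metallothionein cluster (shaded) and its flanking genes, in the order of the genes on chromosome 16 and not to scale; open symbols are bounds for probes below background on 1 array. In Arp8 KO the MT1A to MT1X side reaches 1.42, MT1B is at 0.14 and MT2A below 0, and the flanking genes lie on either side of 0.

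Spots next to each other on the array were examined. Probe A_23_P303242 of MT1X had 2 adjacent spots brighter by over 2-fold on the Arp8 KO array alone, which gained 15.5 and 16.9 signal units where the probe itself gained 17441. Its probe A_24_P125096 had 1 such neighbor, a JUN probe, which gained 876 units against 19866 for the probe. Probe A_23_P60933 of MT1G had 2 adjacent spots bright on the Arp5 KO array alone, 1 of them a FRAT1 probe. They gained 100 and 89.9 units where the MT1G probe gained 1217. It also had 1 bright on the Arp8 KO array alone, which gained 19.8 units against 2999. The part of these spots in the MT1X and MT1G differences was not tested. Of 25273 probes, 5.54% had at least 1 neighbor bright on the Arp8 KO array alone, and 0.993% had at least 2. For the Arp5 KO array alone, 1.56% had at least 2. MT1F, MT2A and ATP7B had no neighbor bright on 1 array alone. Without the probes next to a spot bright on 1 array alone, 1 member probe was past 2-fold higher in Arp8 KO, that of ATP7B.

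MTF1, the factor that binds the metal response elements, stayed close to its WT level. Its probe A_23_P74241 read 1.52 in WT, 1.45 and 1.53 in the Arp5 and Arp8 knockouts, and 1.27 in Arp8 OE. The knockouts were within 2 technical SDs of WT, at differences of -0.07 (technical SD 0.048) and 0.01 (technical SD 0.044), and Arp8 OE was 1.19-fold lower (-0.25, technical SD 0.040). The array reads MTF1 mRNA and not its activity. The second MTF1 probe, not well above background anywhere, gave no difference. Of the genes listed with MTF1 as partners of the metal and stress response (SP1, EP300, KEAP1, and MTF2 for its similar name), 0 of 6 probes were past 2-fold. Over all tested probes, the shares past 2-fold ran from 1.69% to 4.35% by comparison and direction. KEAP1, the sensor that holds back NRF2, differed by -0.22, -0.57 and -0.31, and the SP1 probes by -0.33 and -0.82 in Arp8 KO; these 2 genes were picked after their values were seen.

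ATP7B, the copper exporter of Wilson disease, had the largest differences of all members in both knockouts. It was low in WT, at a level of -3.35 (72.2 signal units), and read -0.47 in Arp5 KO (534 units), -1.22 in Arp8 KO (282 units) and -2.53 in Arp8 OE (112 units). All 4 arrays were well above background, and each step between neighbors in level exceeded 2 technical SDs. Relative to WT, ATP7B was 7.36-fold higher in Arp5 KO (log2 difference 2.88, technical SD 0.084), 4.38-fold higher in Arp8 KO (2.13, technical SD 0.085) and 1.76-fold higher in Arp8 OE (0.81, technical SD 0.103). These values lay at the 99.9th, 99.6th and 95.6th percentile of all tested probes of their comparison. Arp8 KO was lower than Arp5 KO by 0.75, the opposite of the order of the MT1 genes, and this difference does not use the WT array.

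ATP7B rested on 1 probe, and its size depended on the background correction. With normexp on the median spot signals the log2 differences were 2.06 and 1.43 in the Arp5 and Arp8 knockouts and 0.45 in Arp8 OE. With Arp8 OE as the reference they were 2.07 in Arp5 KO and 1.32 in Arp8 KO. Both knockouts were past 2-fold under each of these settings.

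ATP7A, the related ATPase, was dim on every array but well above background. It read -4.31 in WT, -4.04 and -3.53 in the Arp5 and Arp8 knockouts, and -3.92 in Arp8 OE. The highest array was Arp8 KO, at a difference of 0.78 (1.71-fold, technical SD 0.140) from WT, which was 0.30 with normexp background correction. Arp5 KO was within 2 technical SDs of WT below it and of Arp8 OE above it. Its Arp8 OE value (0.39) has a spot of BHLHE40 beside it that was bright on that array alone, by 54.0 signal units where ATP7A gained 5.83; its part in that value was not tested. In Arp5 KO, where ATP7B was 7.36-fold higher, ATP7A was 1.20-fold higher.

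SLC31A1, which brings copper into the cell, read below its WT level in Arp8 KO on each of its 4 probes, by less than 2-fold. Probe A_24_P252667 read -0.50 in WT, -0.74 and -1.18 in the Arp5 and Arp8 knockouts, and -0.94 in Arp8 OE. Probe A_23_P253405 read -0.54, -0.65, -1.13 and -0.89. Probe A_24_P321068 read -0.91, -1.12, -1.52 and -1.33. These 3 probes gave the same order, with WT highest and Arp8 KO lowest. On A_23_P253405, however, Arp5 KO lay within 2 technical SDs of WT (gap 0.106, technical SD 0.065). The fourth probe, A_24_P928901, read -1.09, -1.04, -1.25 and -1.30, and did not separate Arp8 KO from Arp8 OE or Arp5 KO from WT by 2 technical SDs. The Arp8 KO differences were -0.68 (1.60-fold lower), -0.59, -0.62 and -0.16, a mean of -0.51 ± 0.24 (SD between 4 probes). The means were -0.13 ± 0.13 in Arp5 KO and -0.35 ± 0.11 in Arp8 OE. None of the probes was past 2-fold.

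ATOX1, the chaperone between uptake and export, stayed close to WT. It read 2.10 in WT, 2.21 and 2.15 in the Arp5 and Arp8 knockouts, and 1.93 in Arp8 OE. The differences were 0.10 (technical SD 0.043), 0.04 (technical SD 0.039) and -0.17 (technical SD 0.038). Arp8 KO was within 2 technical SDs of WT and of Arp5 KO.

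**Figure D5:**
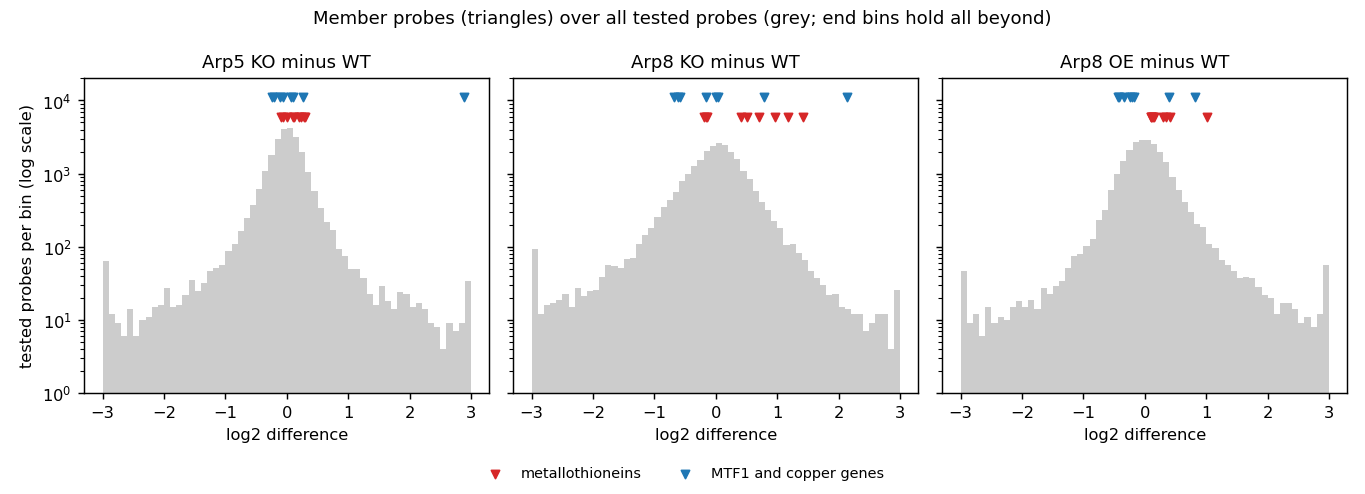
Member probes (triangles; upper row MTF1 and copper genes, lower row metallothioneins) over the distribution of log2 differences from WT of all tested probes (grey, counts on a log axis, end bins hold all values beyond 3). ATP7B lies in the upper tail in both knockouts; the middle 90% of all probes ran from -0.56 to 0.52 in Arp5 KO, from -0.94 to 0.85 in Arp8 KO and from -0.62 to 0.76 in Arp8 OE.

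A list of 24 further genes for copper delivery and use was examined next. All 24 had probes, 21 were well above background somewhere, and in the knockouts 0 of 31 (Arp5) and 0 of 30 (Arp8) tested probes were past 2-fold. Over all tested probes, 1.69% were past 2-fold higher and 2.01% lower in Arp5 KO, and 3.37% and 4.35% in Arp8 KO. In Arp8 OE 1 of 31 was past 2-fold higher, where the share over all tested probes was 2.96%. It was that of CP, the copper-carrying ferroxidase ceruloplasmin, which was not well above background in WT and was at least 3.28-fold higher. CP was named after its values were seen. The median differences were 0.00 and 0.08 in the Arp5 and Arp8 knockouts and -0.17 in Arp8 OE. Named after their values were seen, SOD1, the copper-zinc superoxide dismutase, differed by -0.56 and -0.60 on its 2 probes in Arp8 KO, and SCO2, which delivers copper to cytochrome c oxidase, by 0.71. CCS, the chaperone that loads SOD1, differed by 0.32 in Arp8 KO and 0.56 in Arp8 OE. COX17, which carries copper into mitochondria, differed by -0.47 and -0.22 in the Arp5 and Arp8 knockouts and -0.34 in Arp8 OE. The metalloreductases STEAP2, STEAP3 and STEAP4 were at background throughout.

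The genes with the most similar pattern were sought for MT1X, MT2A and ATP7B, as the smallest Euclidean distance over the 3 log2 differences from WT, among 11162 genes well above background on all arrays. These 3 differences share the WT array. The gene nearest to MT1X was MT1H, at a distance of 0.097, followed by FSTL3, BACE1, POLH and EMILIN2 (0.108 to 0.150), and 27 probes lay within 0.25. MT2A, with its 3 differences near 0 where most probes lie, had 1609 probes within 0.25. CCM2, NSD2, TMSB10, ABI1 and ARHGEF18 were nearest to it (0.024 to 0.036). For ATP7B, singled out by its large differences, 0 probes lay within 0.25. The nearest were GJA3 (1.165), SOCS2 (1.211), FRAT1 (1.367), CBFA2T3 (1.391) and PROSER2 (1.503). The counts within 0.25 follow from the size of the differences and describe nothing more. In the Arp5 and Arp8 knockouts GJA3 differed by 1.74 and 2.38 and SOCS2 by 1.98 and 2.79, both with Arp8 KO above Arp5 KO, the reverse of ATP7B. The FRAT1 probe read 23.4 signal units in WT and 113 in Arp5 KO. It is the FRAT1 spot beside MT1G named above, and local brightness there was not tested.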

How the data were processed

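Total RNA from the 4 Nalm-6 cultures was labelled with Cy3 and hybridized to 1-color Agilent arrays. Spot intensity in the deposited scanner files is linear and background-subtracted within each array. The file headers name Agilent Feature Extraction 10.10.1.1 as the software. The deposited series matrix holds the same intensity multiplied by 1 factor per array (2.01 for WT, 1.99 and 2.25 for the Arp5 and Arp8 knockouts, and 2.29 for Arp8 OE).

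Values were log2 ratios of the processed signal to the 75th percentile of all non-control spots on the array. Outlier spots were left out and spots of a probe averaged. A probe counted as well above background where 50% or more of its spots did, and entered a comparison if so on either array. A dim value was raised to the lowest value well above background, which makes the difference a bound. Technical SDs were the median over the 50 replicate probes nearest in level. Adjacent spots had centers within 20 pixels. Each group was compared with WT. With 1 array per group no p-value was computed. The code was tested on simulated data.

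The members and lists were chosen with earlier results of these data known. A gene of the flanking list is not reported here. Named genes were all members, ACTR5, ACTR8 and HMOX1, the 5 nearest patterns of MT1X, MT2A and ATP7B, and of each list at most 6 genes with a probe past 2-fold and well above background on both arrays compared. Other list genes were named after their values were seen. Marker genes only checked the cell line. Probes were named through RefSeq identifiers, which matched 27210 probes. The file headers name build hg19, so no coordinates were taken from the arrays. Promoters were from RefSeq (GRCh38.p14), with entries for 7 of the 10 members.

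As alternatives, cyclic loess, quantile normalization and scaling to the median were tried, as were normexp with an offset of 50 on the median spot and background signals, the series matrix, stricter or no filtering of dim probes, a 4-fold threshold, Arp8 OE as the reference, gene means, and the omission of probes beside a spot bright on 1 array alone. Python 3.11.15, R 4.3.3 and limma 3.58.1 were used.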

Additional observations from a re-analysis of the deposited data

How the results depend on the processing

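No paired analysis was possible because each group has 1 array, so the shared replicate number pairs nothing. None of the called member differences changed sign under the alternatives. Of the 51 member differences, cyclic loess and quantile normalization moved each by at most 0.06, the series matrix by at most 0.01, and normexp by -0.82 to 0.19, most for ATP7B. With Arp8 OE as the reference, 12 of 34 differences had another sign, by construction those between 0 and the value of Arp8 OE. Of the differences not past 2-fold, 2 changed sign with normexp, 1 when scaled to the median and 1 with gene means.

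Among member probes, those past 2-fold higher in Arp8 OE numbered 0 when scaled to the median, with normexp and at 4-fold. Those in Arp8 KO numbered 1 at 4-fold and 1 without probes beside a bright spot, each time ATP7B.

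Counts over all tested probes moved more. In the order Arp5 KO, Arp8 KO, Arp8 OE, normexp gave 133 higher and 165 lower, 255 and 439, and 258 and 184. Requiring both arrays well above background gave 155 and 203 in Arp5 KO, 632 lower in Arp8 KO, and 386 and 233 in Arp8 OE. No filter gave 1077 and 1679, 1762 and 2810, and 1572 and 1743 in that order. At 4-fold they were 126 and 162, 123 and 268, and 176 and 152. Gene means gave 189 and 251, 333 and 543, and 286 and 249 genes. Without probes beside a bright spot they were 123 and 193 in Arp5 KO, 658 lower in Arp8 KO, and 374 and 236 in Arp8 OE. Arp8 OE as the reference gave 792 lower in Arp5 KO and 398 higher in Arp8 KO. Other than the smaller or larger number of probes counted, the cause was not tested. The median over all probes stayed within 0.05 of 0 under each scaling. Signal near background limits ATP7A, and 1 array per group limits every value.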

Other observations

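Zinc transporters, which set the zinc level that MTF1 senses, were examined as a list. Of 24 SLC30 and SLC39 genes on 37 probes, 19 were well above background somewhere. In Arp8 KO 1 of 26 tested probes was past 2-fold lower and 0 higher, and in Arp5 KO 0 of 25 were past 2-fold. Over all tested probes, 4.35% were past 2-fold lower and 3.37% higher in Arp8 KO, and 2.01% and 1.69% in Arp5 KO. The probe past 2-fold lower in Arp8 KO was of SLC30A6, a transporter that moves zinc into the Golgi. It read -3.47 in WT, -4.15 and -4.58 in the Arp5 and Arp8 knockouts, and -4.36 in Arp8 OE, so that Arp8 KO was 2.16-fold below WT. The second SLC30A6 probe had the same order, at -2.18, -2.74, -3.03 and -2.89. In Arp8 OE 1 of 27 probes was past 2-fold higher, where the share over all tested probes was 2.96%. It was that of SLC30A10, not well above background in WT and at least 2.03-fold higher. This probe read 40.8 signal units on the Arp8 OE array and had 1 adjacent spot bright on that array alone, whose part was not tested. SLC30A1, a zinc exporter and known MTF1 target, differed by -0.01 and 0.00 in the Arp5 and Arp8 knockouts and -0.37 in Arp8 OE. The list medians were -0.02, -0.10 and -0.22. SLC30A1 and SLC30A10 were singled out after their values were seen.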
